A study of Mus musculus with 20 samples.

Results

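The 74 potassium channel genes described here are the protein-coding genes whose symbol starts with Kcn and which had at least 10 reads in at least 5 of 20 distal colon libraries from mice. They were 74 of 89 such genes in a table of 26619 genes, and the mouse annotation holds 94. All mice were C57BL/6 and ate the Total Western Diet (TWD), a rodent feed with the nutrient profile of an American diet, for 6 weeks after weaning. They then ate TWD with 0, 2, 5 or 10% resistant potato starch (RPS; raw potato starch in the sample labels), which is fermented in the large bowel, for 3 more weeks. Each diet held 5 mice with 1 library each, and the mice fed TWD without RPS were the controls. The age at the start was 3 weeks, as the series' description gives it.

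Of the other Kcn genes, 15 were in the table but stayed under the read minimum: Kcna3, Kcna4, Kcna7, Kcna10, Kcne1, Kcne5, Kcng2, Kcng3, Kcnh4, Kcnj13, Kcnj16, Kcnk12, Kcnk16, Kcnmb3 and Kcns2. A further 5, Kcnh5, Kcnj1, Kcnj4, Kcnk15 and Kcnk18, were not analysed here. The 74 members comprised 31 voltage-gated pore genes, 14 genes of auxiliary subunits, 11 inward rectifiers, 10 two-pore domain channels and 8 channels of the calcium- or sodium-activated family. All 74 were among the 17893 genes that passed the expression filter of the diet comparisons.

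Potassium channels let potassium ions leave cells down their gradient and so hold the membrane voltage negative inside. In the colon epithelium, channels in the basolateral membrane recycle the potassium that the sodium pump brings in, which keeps the driving force for chloride secretion and sodium uptake, and channels in the apical membrane secrete potassium into the lumen. In the muscle coat, potassium channels set the excitability of smooth muscle, and neurons of the gut wall use them to shape firing.

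The libraries were cut from the whole wall, so epithelium, muscle and nerve all contributed. The total count was 18.43 to 34.97 megareads per mouse. Its mean was highest in the controls (32.8 ± 1.35 megareads, SD, n = 5) and lowest at 10% RPS (24.3 ± 3.43 megareads). These 2 groups did not overlap in depth (31.25 to 34.97 and 18.43 to 26.6 megareads). The part of depth in the differences at 10% RPS was not tested. Member genes took between 0.0801% and 0.103% of the reads of a mouse. All 8 epithelial markers and all 10 smooth muscle markers were expressed, with summed levels of 11570 to 18660 CPM (counts scaled to a common library size) and of 6781 to 14750 CPM. One library stood apart: mouse RS10_721 of the 5% RPS group had 2168 CPM of the 2 tested pancreatic acinar genes (next mouse 178.5 CPM), together with the lowest smooth muscle sum and the highest epithelial sum. For 3 mice a second label named another diet than the one used. It was 2% for RS10_717 (5% used here), 5% for RS10_725 (10% used here) and 10% for RS10_748 (2% used here). In bulk tissue, fewer cells of a type cannot be told apart from less RNA per cell.

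The sequence that defines a potassium channel pore is the selectivity filter. The pattern searched for was 5 residues: threonine or serine, then valine, isoleucine or leucine, then glycine, then tyrosine, phenylalanine or leucine, then glycine. In the longest coding transcript of each member (GENCODE, GRCm39), these 5 codons occurred at least once in 60 of 74 members, which were all the pore-forming genes. They occurred in 0 of 14 auxiliary genes, including Kcne3, Kcnmb1 and Kcnip4. Of the 10 two-pore genes, 8 held the pattern in both pore loops, while Kcnk1 and Kcnk7 held it in 1 place. A loop that reads otherwise at any of the 5 positions was not counted. The 39-base windows below show the filter of 9 pore genes that the results turn on, on the coding strand, with the 15 filter bases in capitals and 12 bases of coding sequence on each side. For Kcnk5 and Kcnk6 the second of the loops is shown.
Kcnk5 (chr14:20194704-20194742, minus strand): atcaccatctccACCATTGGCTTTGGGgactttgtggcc
Kcnk1 (chr8:126752056-126752094, plus strand): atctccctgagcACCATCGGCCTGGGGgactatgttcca
Kcnk6 (chr7:28924949-28924987, minus strand): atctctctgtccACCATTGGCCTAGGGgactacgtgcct
Kcnf1 (chr12:17225050-17225088, minus strand): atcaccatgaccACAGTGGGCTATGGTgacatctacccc
Kcnj8 (chr6:142512162-142512200, minus strand): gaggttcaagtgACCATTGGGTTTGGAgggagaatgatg
Kcnma1 (chr14:23578469-23578507, minus strand): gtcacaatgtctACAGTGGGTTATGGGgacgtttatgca
Kcnh2 (chr5:24530541-24530579, minus strand): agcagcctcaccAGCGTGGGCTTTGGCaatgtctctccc
Kcnh6 (chr11:105909890-105909928, plus strand): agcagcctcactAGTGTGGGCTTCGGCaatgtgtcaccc
Kcnu1 (chr8:26371406-26371444, plus strand): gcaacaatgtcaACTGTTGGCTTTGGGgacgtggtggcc
The shown loops of Kcnk1 and Kcnk6, which form background potassium channels, read leucine at the fourth filter position. Kcnh2 and Kcnh6, of the ERG family of voltage-gated channels, start the filter with serine and read phenylalanine at that position. The shown windows of Kcnk5, Kcnj8 and Kcnu1 also read phenylalanine there. All 9 windows lay within a single exon.

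Levels between genes were compared as CPM per kilobase of merged exon. A few genes held most of the channel RNA: the 5 highest members made up 60.3% of the summed level and the 10 highest 78.63%. Kcnk5, the gene of an acid-sensitive background channel (TASK-2), was highest at 31.1 ± 5.80 CPM per kb (SD, n = 20). Kcne3, which encodes the small membrane subunit that keeps KCNQ1 open at resting voltage in crypt cells, followed at 25.2 ± 4.90, and Kcnk1 (TWIK-1) at 24.7 ± 5.88 CPM per kb. Kcnk5 exceeded Kcne3 in 16 of 20 mice. Kcne3 exceeded Kcnk1 in 11 of 20, so these neighbours did not differ beyond the spread between mice.

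Kcnq1 came next at 14.8 ± 1.39 CPM per kb and was below Kcnk1 in 20 of 20 mice. Kcnf1, a pore-type subunit that forms no current alone, had 11.9 ± 2.57, and Kcnk6 (TWIK-2) 9.12 ± 1.48. Kcnn4, the intermediate-conductance calcium-activated channel of the basolateral membrane, had 7.35 ± 1.01 CPM per kb. The ranks 8 to 10 were Kcnmb1 at 6.08 ± 0.909, Kcnj8 at 5.41 ± 0.753 and Kcnip4 at 4.78 ± 0.951 CPM per kb. Kcnmb1 encodes the beta1 subunit of the large-conductance (BK) channel, Kcnj8 the pore of the vascular ATP-sensitive channel, and Kcnip4 a calcium-binding subunit of Kv4 channels. When the longest coding transcript replaced merged exons the same 10 genes led, but Kcne3 moved to rank 1 and Kcnn4 to rank 3, so the order within them rests on the transcript length chosen.

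The 10 two-pore genes held 37.77% of the summed level, the 31 voltage-gated genes 26.77%, the 14 auxiliary genes 23.43%, the calcium- or sodium-activated genes 7.321% and the 11 inward rectifiers 4.714%. These shares rest on the length used: with the longest coding transcript the calcium- or sodium-activated genes held 16.68% and the two-pore genes 29.91%. Kcnma1, the BK pore and the main route of apical potassium secretion in the colon, was at rank 13 with 2.89 ± 0.368 CPM per kb, spread over 16990 bases of merged exon. At the low end were Kcnj6, a G protein-gated channel of neurons, with 0.0296 CPM per kb, and Kcnk9 (TASK-3) with 0.0344. Counts of single members ran from 0 to 6817 reads per mouse, and 3 reads in a mouse corresponded to 0.085 to 0.163 CPM.

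**Figure D1:**
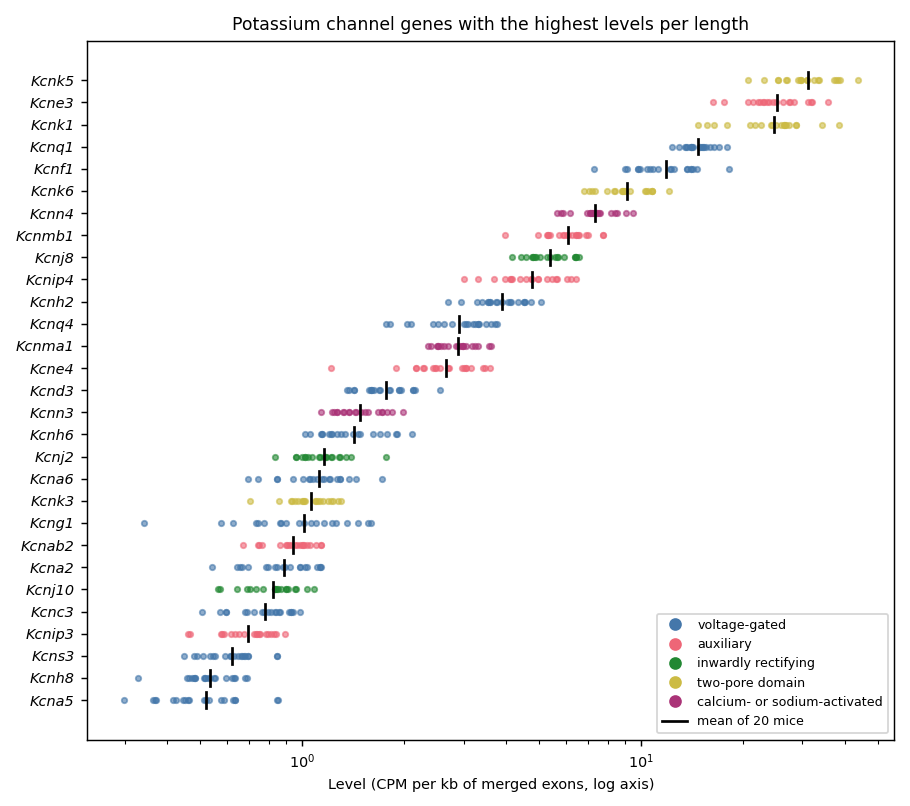
Level of 29 of the 30 highest potassium channel genes in CPM per kilobase of merged exon (log axis), with 1 point per mouse, a black bar at the mean of 20 mice and colour by channel class. Kcnk5, Kcne3 and Kcnk1 overlap at the top (means 31.1, 25.2 and 24.7), and 3 of the 6 highest genes are two-pore channels.

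The first question was whether RPS at each level changed these genes against the TWD controls. By edgeR's quasi-likelihood test with Benjamini-Hochberg adjustment over all genes, and a call set at adjusted p ≤ 0.05 with 1.5-fold or more, 0 of 74 members were called at 10% RPS, where 0.0391% of all genes were. The counts were also 0 of 74 at 5% RPS and at 2% RPS, where 0% of all genes were called. At an unadjusted p under 0.05 there were 7 members at 10% RPS (2 higher, 5 lower), or 9.46% of members against 15.2% of all genes. At 5% RPS there were 6 (3 higher, 3 lower; 9.19% of all genes) and at 2% RPS 1 (higher; 1.41% of all genes). DESeq2 with the same thresholds called 0 members at 10%, 5% and 2% RPS, against 1.21%, 0.156% and 0.00386% of the genes it tested.

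Over the 4 diets taken as a number, 0 of 74 members had a trend at an adjusted p of at most 0.05, with 2.1% of all genes past it. At an unadjusted p under 0.05 there were 7 members (1 rising, 6 falling), against 19.1% of all genes. DESeq2 gave a falling trend for Kcnh6 and Kcnu1, which were 2 of the 63 members with an adjusted p, where 6.01% of the genes it tested had a trend. With 1 mouse left out of the edgeR fit, 0 to 2 members passed, and 2 did without RS10_703, RS10_704 or RS10_727. A test of any difference among diets called 0 members (0.0727% of all genes), and 5 had an unadjusted p under 0.05 (10.6% of all genes).

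The intervals show how large a change could have been missed. At 10% RPS the fold was within 1.5 times for 65 of 74 members, and for 34 the whole 95% interval of the edgeR fit lay within that range. For 59 the interval lay within a 2-fold change. The median log2 fold change of the members was -0.06 at 10% RPS, 0.01 at 5% and 0.06 at 2%, beside -0.015, -0.008 and -0.001 for all genes. At 10% RPS 28 of 74 members had a positive fold, and 46.8% of all genes did.

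**Figure D2:**
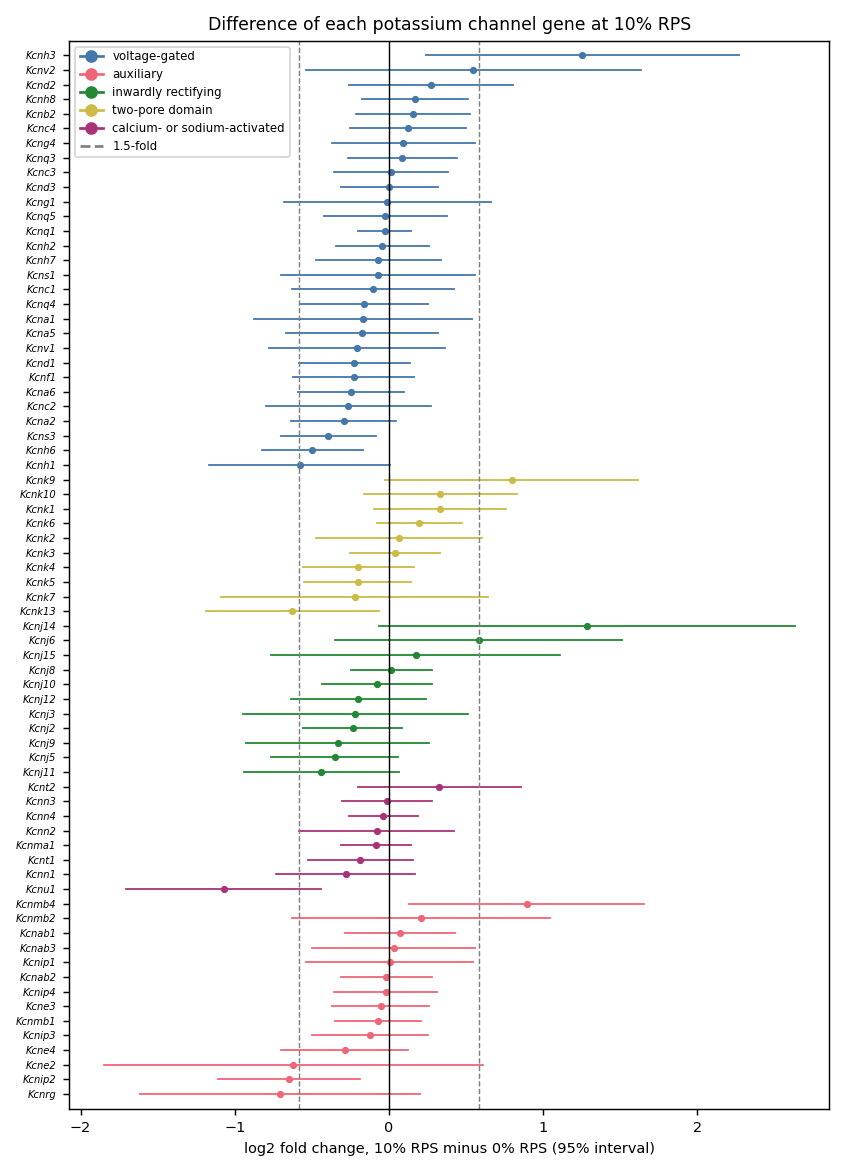
Difference of 72 of the 74 potassium channel genes at 10% RPS against 0% RPS (log2 fold change, points) with its 95% interval (lines), grouped and coloured by class, with dashed lines at 1.5-fold. Most intervals cross 0, and those of Kcnq1, Kcnn4 and Kcnma1 are among the narrow ones, while Kcnu1 is the lowest point at -1.07.

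None of the 11 listed channel genes of the epithelium was called at any RPS level. Of all genes, edgeR called 0.0391% at 10% RPS and 0% at 5% and 2% RPS. Kcnq1 is the pore that pairs with KCNE3 to recycle potassium at the basolateral membrane. The 5 controls had 78.6, 76.6, 69.4, 69.6 and 77.6 CPM of it and the 5 mice on 10% RPS 72.3, 72.6, 84.3, 72.1 and 63.2 CPM. The groups overlapped, and the log2 fold change was -0.03 (95% interval -0.20 to 0.15, edgeR adjusted p = 0.909). Its partner Kcne3 had 180, 164, 152, 142 and 161 CPM in controls and 168, 188, 155, 112 and 147 CPM at 10% RPS. The fold was -0.06 on the log2 scale (-0.37 to 0.26).

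At 5% RPS Kcne3 was at 217, 157, 213, 245 and 172 CPM, with 3 of 5 mice above every control. The log2 fold change there was 0.33 (0.02 to 0.64), but the adjusted p was 0.523. The highest of these mice, at 245 CPM, was RS10_721, the library with the most acinar RNA. Kcnn4 at 5% RPS had 74.8, 58.6, 57.4, 66.0 and 60.0 CPM beside 57.2, 54.8, 58.4, 46.0 and 55.7 CPM in controls, a log2 difference of 0.22 (0.00 to 0.44, adjusted p = 0.546). At 10% RPS it was at 44.8 to 59.2 CPM and its log2 fold change was -0.04 (-0.26 to 0.19).

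Kcnk5 had 102, 115, 99.7, 150 and 101 CPM in controls and 87.0, 92.8, 79.3, 106 and 128 CPM at 10% RPS. It was lower on average by less than the spread between mice (log2 fold change -0.20, interval -0.55 to 0.14). Kcnk1 ran the other way, with 66.8, 72.8, 67.4, 41.7 and 39.6 CPM in controls and 72.8, 65.8, 67.0, 69.5 and 86.8 CPM at 10% RPS. The groups overlapped, with 2 controls far below the other mice, and the difference was 0.33 on the log2 scale (-0.10 to 0.76, adjusted p = 0.464). Kcnk6 differed by 0.20 on the log2 scale (-0.08 to 0.47) between 37.0 ± 9.07 CPM in controls and 42.4 ± 4.31 CPM at 10% RPS (SD, n = 5).

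Kcnma1 had 50.5, 43.9, 50.9, 48.9 and 48.4 CPM in controls and 44.6, 60.8, 42.9, 41.0 and 39.9 CPM at 10% RPS. Of the mice on 10% RPS, 3 lay below every control and 1, RS10_727, above every control, and the log2 fold change was -0.08 (-0.31 to 0.14). The other listed epithelial genes were scarce: Kcne2, a KCNE subunit of acid-secreting epithelium, averaged 0.278 CPM, Kcnj15 0.276 CPM, Kcnmb2 0.559 CPM and Kcnmb4 0.453 CPM over 20 mice. The 11 members listed as epithelial included Kcnma1, which is also used in muscle. Their summed level was 515.3 to 579.6 CPM in controls, 497.3 to 612.5 at 2%, 544.0 to 693.4 at 5% and 496.1 to 576.3 at 10% RPS. The 693.4 CPM were those of mouse RS10_721.

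**Figure D3:**
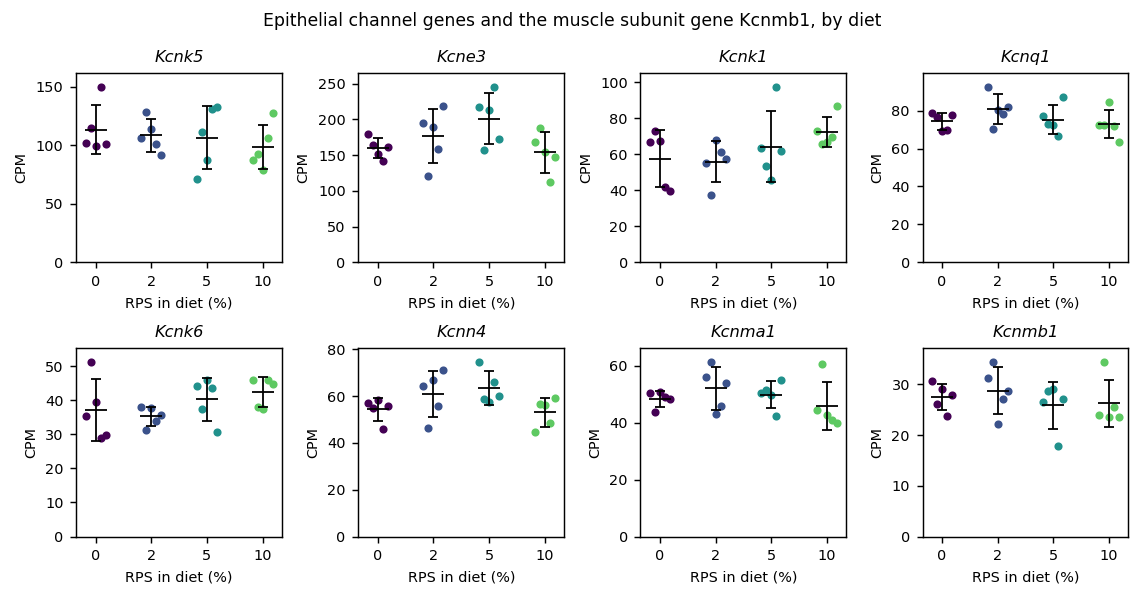
CPM of 7 channel genes of the epithelium (Kcnma1 is also used in muscle) and of the muscle subunit gene Kcnmb1 by RPS percent, with 1 point per mouse and the mean ± SD of 5 mice in black. In every panel the 10% RPS mice overlap the controls, for example 63.2 to 84.3 CPM against 69.4 to 78.6 CPM for Kcnq1.

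The members with the smallest p-values were mostly scarce genes. Kcnu1 encodes a BK-like pore (SLO3) known from sperm. Controls had 1.02, 0.570, 0.559, 1.76 and 1.27 CPM and mice on 10% RPS 0.608, 0.381, 0.427, 0.621 and 0.392 CPM. The groups overlapped, since 2 controls lay within the 10% range. Mouse RS10_748, which a second label places at 10% RPS, had 1.17 CPM of Kcnu1. The log2 fold change at 10% RPS was -1.07 (-1.71 to -0.44, unadjusted p = 0.0019, adjusted p = 0.107), and at 2% and 5% RPS it was 0.00 and -0.14. The adjusted p of its trend was 0.0589 with edgeR and 0.0208 with DESeq2. Without the control mouse RS10_703 the adjusted p at 10% RPS was 0.0490 and the gene was called. Its lowest count was 7 reads in a mouse.

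Kcnh6, an ERG-type voltage-gated channel, had 7.85, 6.74, 5.28, 9.73 and 8.23 CPM in controls and 7.48, 6.16, 8.74, 8.80 and 5.67 CPM at 2% RPS. It had 5.85, 6.86, 4.87, 6.5 and 5.63 CPM at 5% and 4.72, 5.28, 5.55, 6.02 and 5.26 CPM at 10% RPS. All 5 mice on 10% RPS lay below 4 of the 5 controls, but the groups overlapped because the lowest control had 5.28 CPM. The log2 fold change was -0.50 at 10% RPS (-0.82 to -0.17, adjusted p = 0.138) and -0.35 at 5% RPS (adjusted p = 0.511). Its edgeR trend had an adjusted p of 0.0512 and its DESeq2 trend one of 0.0155. Across 20 mice Kcnh6 correlated negatively with the score of epithelial markers, the mean log2 CPM of 8 genes (r = -0.624, permutation adjusted p = 0.0308; rho = -0.701, adjusted p = 0.0234). That score was 10.21 ± 0.15 in controls and 10.45 ± 0.14 at 10% RPS, and within diets r was -0.332 (unadjusted permutation p = 0.189). The part of the epithelial share in the lower Kcnh6 level was not tested.

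At 10% RPS 2 members, both lower, had groups that did not overlap, while 2.28% of all genes had such groups. Kcns3, a silent subunit that modifies other voltage-gated channels, had 5.13, 4.90, 5.16, 5.06 and 6.39 CPM in controls and 3.73, 4.79, 3.41, 4.50 and 3.88 CPM at 10% RPS (log2 fold change -0.39, interval -0.70 to -0.09, adjusted p = 0.209). Kcnk13 (THIK-1), a two-pore channel known from microglia and other macrophages, had 1.25, 0.981, 1.09, 1.19 and 1.72 CPM in controls and 0.913, 0.871, 0.725, 0.738 and 0.784 CPM at 10% RPS. Its log2 fold change was -0.63 (-1.18 to -0.07, adjusted p = 0.274). The 4 macrophage markers summed to 74.2 to 150.5 CPM in controls and 70.1 to 100.9 CPM at 10% RPS, and the part of macrophages in the Kcnk13 level was not tested. Kcnip2, a Kv4 subunit, had a log2 fold change of -0.65 (-1.11 to -0.19, adjusted p = 0.168) with overlapping groups of 1.01 to 1.60 CPM and 0.582 to 1.06 CPM. Mouse RS10_748, at 10% RPS by its second label only, had 1.17 CPM of Kcnip2.

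On the higher side, Kcnmb4, the beta4 subunit of BK channels, had 0.454, 0.443, 0.217, 0.0893 and 0.151 CPM in controls and 0.646, 0.381, 0.555, 0.388 and 0.549 CPM at 10% RPS. Its log2 fold changes were 0.80 at 2%, 1.05 at 5% and 0.89 at 10% RPS, with unadjusted p-values of 0.0386, 0.0077 and 0.0235 and adjusted p-values of 0.9997, 0.369 and 0.248 (edgeR). All 3 differences use the same 5 controls. Kcnh3, an ELK-type voltage-gated channel of neurons, had 0.198, 0.506, 0.217, 0.208 and 0.241 CPM in controls and 0.570, 0.490, 0.725, 1.24 and 0.235 CPM at 10% RPS (log2 fold change 1.25, interval 0.24 to 2.27, adjusted p = 0.230). For both genes the lowest count in a mouse was 3 reads, so single reads weigh on these values.

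**Figure D4:**
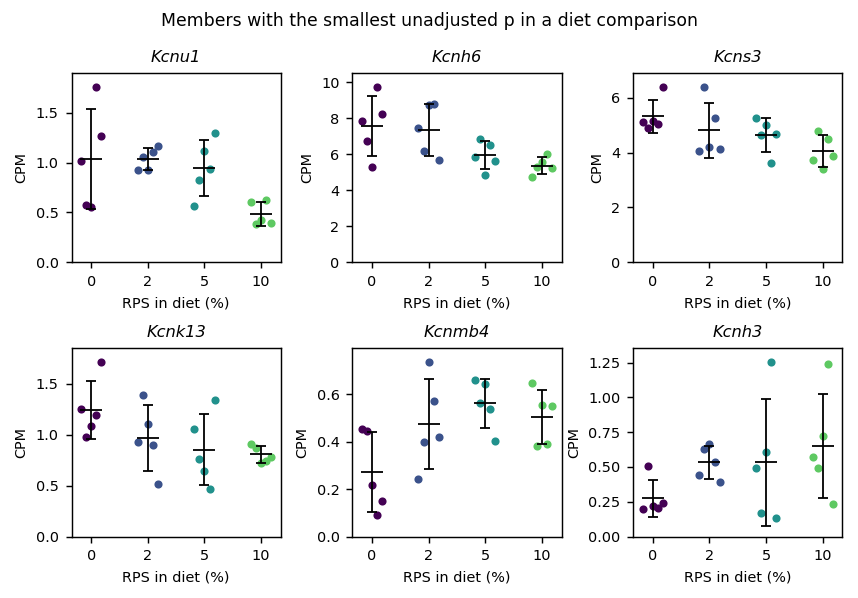
CPM of 6 members with small unadjusted p-values by RPS percent, with 1 point per mouse and the mean ± SD of 5 mice in black. Kcns3 and Kcnk13 have 10% RPS mice entirely below the controls, the other 4 genes overlap, and Kcnu1, Kcnk13, Kcnmb4 and Kcnh3 stay under 2 CPM.

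At 5% RPS 0 members had groups without overlap (1.04% of all genes). Without RS10_721 the count of called members there was also 0. Kcnd1, a Kv4 pore gene, had 3.26, 3.51, 2.61, 2.41 and 2.47 CPM in controls and 2.02, 2.52, 2.16, 1.80 and 1.96 CPM in the fed mice (log2 fold change -0.44, adjusted p = 0.442). Kcnab3, a beta subunit of Kv1 channels, had 0.646 ± 0.0731 CPM in controls and 0.931 ± 0.218 CPM at 5% RPS (SD, n = 5; log2 fold change 0.52, adjusted p = 0.535). At 2% RPS 1 member had groups without overlap, beside 0.24% of all genes. It was Kcna6, a Kv1 pore gene named here after its values were seen, with 5.59 to 6.92 CPM in controls and 7.15 to 8.61 CPM at 2% RPS. Its log2 fold change was 0.27 with an unadjusted p of 0.110. At 10% RPS it was at 5.36 ± 1.64 CPM.

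The next question was how the channel genes varied among mice and with marker genes of muscle, epithelium and enteric neurons. Each member was correlated with 3 marker scores over 20 mice, which made 222 correlations with p-values from 100000 permutations adjusted together. With the smooth muscle score, 6 members correlated positively and 0 negatively. The weakest of them had r = 0.680, a value that 8.11% of members and 1.73% of all genes (the score's markers left out) reached. Kcnmb1 was highest (r = 0.888, permutation p = 1e-05, the smallest these permutations give, adjusted p = 0.00074; rho = 0.871, adjusted p = 0.00222), followed by Kcnn2, a small-conductance calcium-activated channel (0.846), and Kcng1, another silent subunit (0.803). Kcnh2, Kcnma1 and Kcne4 had r of 0.746, 0.686 and 0.680. Without the 2 mice farthest from the median score, r stayed between 0.570 and 0.765 for 5 of these genes and was 0.282 for Kcne4, whose relation rests on those mice. Within diets 5 of the 6 passed, again without Kcne4 (r = 0.671, adjusted p = 0.121).

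Kcnmb1 shows this in single mice. The 5% RPS mice had 26.5, 28.7, 29.2, 17.8 and 27.1 CPM, and the 17.8 CPM were those of RS10_721, which had the lowest smooth muscle score of all mice (8.99). At 10% RPS mouse RS10_727 had 34.4 CPM and the other 4 mice 23.6 to 25.5 CPM. Its smooth muscle score (9.85) was the highest of its diet but not of all mice, and its enteric neuron score (4.51) was the highest of all mice. The difference between 10% RPS and controls was -0.07 on the log2 scale (-0.35 to 0.21). Kcnn2 had 1.51 CPM in RS10_721 and 2.22 to 3.84 CPM in the other mice of its diet.

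With the epithelial score, Kcnk1 (r = 0.740, permutation adjusted p = 0.00888; rho = 0.626, adjusted p = 0.0463) and Kcnk10, the mechanosensitive TREK-2 channel (r = 0.671, adjusted p = 0.0190; rho = 0.692, adjusted p = 0.0273), correlated positively, and within diets only Kcnk1 of these passed (r = 0.714, adjusted p = 0.0289). An r of 0.671 or more was held by 3.43% of all genes and by 2.7% of members, so the share of members was no larger than that of all genes. Of all genes, 3.81% were at or below the r of Kcnh6. Kcnk6 (r = 0.572, adjusted p = 0.0579), Kcnn4 (0.371) and Kcne3 (0.255) did not pass with this score. Neither did Kcnk5 (-0.190), Kcnq1 (-0.410) and Kcnma1 (-0.433), whose r was negative. With the enteric neuron score 15 members correlated positively and 0 negatively. All 15 had r of 0.620 or more, as did 3.37% of all genes. Without the 2 mice farthest from the median neuron score, their r was 0.418 (Kcnma1) to 0.733 (Kcnq3). They included Kcnq3 and Kcnq5, pores of channels that damp repetitive firing (r = 0.802 and 0.727), the Kv4 pore Kcnd3 (0.696) with its subunits Kcnip1 and Kcnip4 (0.637 and 0.709), and the G protein-gated rectifier genes Kcnj3 and Kcnj5 (0.683 and 0.620). With ranks 7 of the 15 passed, and within diets 2 did, among them Kcnq5 (r = 0.744, adjusted p = 0.00832). For the other 13 genes the relation did not pass within diets, although r was still 0.548 to 0.830. Some of the 15 also rose with the smooth muscle score, among them Kcnq5, Kcnd3 and Kcnip1 (r = 0.534, 0.529 and 0.578). These passed there only by ranks (rho adjusted p = 0.0396, 0.0304 and 0.0411). The neuron and muscle scores themselves had r = 0.309 and rho = 0.526 (unadjusted permutation p = 0.183 and 0.0186). How far muscle enters the neuron relation was not tested.

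**Figure D5:**
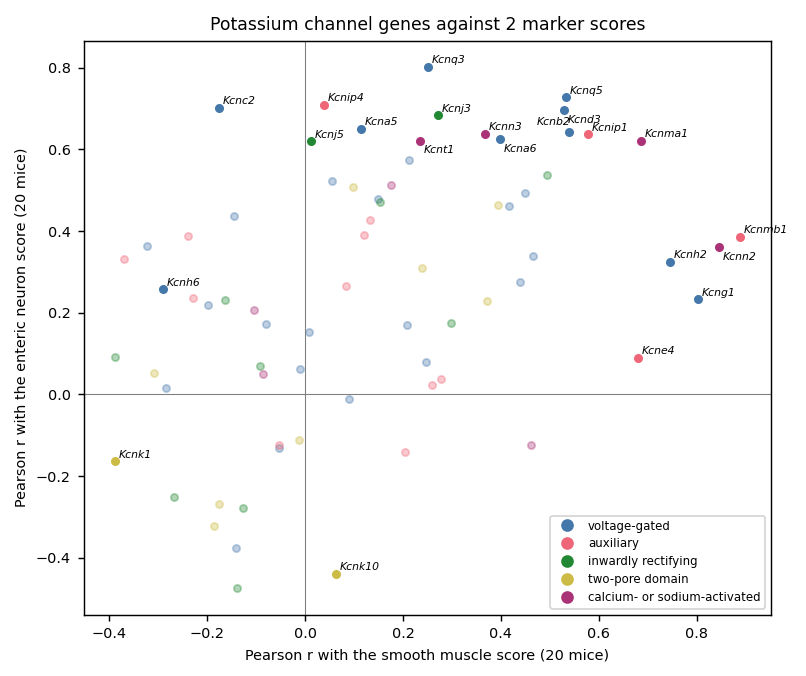
Pearson r of 72 potassium channel genes with the smooth muscle score (horizontal) and with the enteric neuron score (vertical) over 20 mice, coloured by class, with filled and named points for genes that passed with any of 3 scores at a permutation adjusted p of at most 0.05. Kcnmb1, Kcnn2, Kcng1 and Kcnh2 lie at the right (r of 0.746 to 0.888), Kcnq3 at the top (0.802), and Kcnma1 is high on both axes (0.686 and 0.621). The 0.621 of Kcnma1 with the neuron score became 0.418 without the 2 mice farthest from the median score. It did not pass by ranks (permutation adjusted p = 0.0947) or within diets (0.264).

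Channels are assembled from subunits, so 13 pairs of genes known to encode partners were compared across the 20 mice. Of these, 5 pairs correlated at a permutation adjusted p of at most 0.05. They included Kcnma1 with Kcnmb1 (r = 0.804, adjusted p = 0.00026; rho = 0.848, adjusted p = 0.00013), Kcnd3 with Dpp10, a Kv4 subunit outside the Kcn family (r = 0.738, adjusted p = 0.00182; rho = 0.782, adjusted p = 0.00117) and Kcnj8 with Abcc9, its sulphonylurea receptor partner (r = 0.512, adjusted p = 0.0457; rho = 0.478). The last did not pass by ranks (rho adjusted p = 0.0770). Without the 2 mice farthest from the median of the first gene, r for these 3 pairs was 0.549 to 0.768, and within diets it was 0.541 to 0.843. Kcnq1 and Kcne3, the basolateral pair of the epithelium, had r = 0.240 (adjusted p = 0.365; rho = 0.391). Kcnma1 and Lrrc26, the gamma subunit that opens BK channels in secretory epithelium, had r = 0.472 (adjusted p = 0.0759). For Kcnd3 and its subunit gene Kcnip4, r was 0.450 (adjusted p = 0.0876) and 0.231 without the 2 farthest mice. Kcnma1 and Kcnmb1 both correlated with the smooth muscle score, whose part in their correlation was not tested. Kcnd3 correlated with the enteric neuron score (r = 0.696), and the part of that score in its relation with Dpp10 was not tested either. How often other pairs of genes reach such r was not computed.

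The partner genes of potassium handling gave the setting. Of 30 listed genes 28 were tested, and edgeR called 0 of them at 10%, 5% or 2% RPS (0.0391%, 0% and 0% of all genes). At an unadjusted p under 0.05 there were 6, 4 and 0, beside 15.2%, 9.19% and 1.41% of all genes. DESeq2 called 2 at 10% RPS, both lower and both genes of the epithelial sodium channel (Scnn1b and Scnn1g), and 0 at 5% and 2% RPS. Of all genes it tested, it called 1.21%, 0.156% and 0.00386% at these levels. The edgeR log2 fold change at 10% RPS was -1.54 for Scnn1b (-2.26 to -0.82, adjusted p = 0.0781) and -2.10 for Scnn1g (-3.31 to -0.88, adjusted p = 0.110). A falling trend was called for the same 2 genes (edgeR adjusted p = 0.0241 and 0.0410), and neither passed without the 3 mice whose labels disagree. Of all genes, 2.1% had a trend in either direction by edgeR. Atp1b1, a beta subunit gene of the sodium pump, averaged 1372 CPM and differed by 0.03 (-0.16 to 0.22) on the log2 scale at 10% RPS. Atp12a, the colonic proton-potassium pump that takes potassium up from the lumen, ranged from 363 to 1129 CPM over mice, with a log2 difference of -0.04 (-0.64 to 0.56). Slc12a2, the basolateral cotransporter that loads chloride and potassium, differed by -0.05 (-0.25 to 0.15). Lrrc26 had a log2 fold change of -0.44 (-0.84 to -0.04, unadjusted p = 0.0313, adjusted p = 0.280) and Fxyd4, a regulator of the sodium pump, one of -1.12 (-2.08 to -0.16, adjusted p = 0.251).

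Some members share exon sequence with a gene on the other strand, and whether reads were counted by strand is not given in the sources used here. The shared part was 23.5% of the merged exons of Kcnq1 (with Kcnq1ot1 among others), 39.7% for Kcna6, 20.6% for Kcng1 and 18.8% for Kcnmb4. It was 22.6% for Kcnj3, 16.0% for Kcnab3, 15.3% for Kcnn2 and 11.2% for Kcnh3, and these genes are examples. Values of all members with such overlap are uncertain to the extent that such reads were included.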

How the data were processed

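RNA-seq counts per gene of 20 mice, 1 library each, were analysed. To make them, the authors prepared stranded mRNA libraries, trimmed reads by quality and mapped them with CLC Genomics Workbench to GRCm39 (the build is in the submitters' processing notes). The deposited values are raw counts per Ensembl gene. The annotation release, the strand setting and the handling of multiply mapped reads are not given in the sources used here. Diets followed the description label. Whether replicates share cages or batches is not given, so p-values measure the spread between these mice.

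Symbols and exon lengths came from GENCODE vM39 (GRCm39), in which 26338 of 26619 identifiers matched. Counts were TMM-scaled (edgeR 4.0.16) after filterByExpr with a minimum count of 10, and 1 quasi-likelihood fit covered all 20 mice and 17893 genes. A second fit took RPS percent as a number. P-values were adjusted by Benjamini-Hochberg. DESeq2 1.42.0 and limma-voom 3.58.1 were alternatives. The study used DESeq2. Log2 CPM used a prior count of 2. Correlations used two-sided permutation tests, and "within diets" means both values centred on diet means with permutation inside diets. Mice of a diet differed by 9.1 to 62.9 chi-square units per degree of freedom, so no pair agreed within sampling noise. The fits were tested on simulated data.

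Members and lists were chosen with earlier results of these data known, and the subunit pairs, though picked from known biology, were added late. Some items are not reported here. Named genes were the listed epithelial, muscle and nerve channels, at each RPS level and in the trend the 3 smallest p on each side under an unadjusted 0.05, the 10 highest levels per kilobase, any called gene and any gene without overlap at 10% RPS. The alternatives were other tests, scaling, filters, the treatment label, a muscle or clock score as covariate and leaving out mice.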

Additional observations from a re-analysis of the deposited data

Results flagged for a closer look

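In each diet, the CPM of 38 named genes was searched for a mouse set apart from the other 4 of its diet, by a gap over 0.71 of the group's range. Of 152 groups 11 held one, where chance gives about 1 in 20, or 7.6. Mouse RS10_727 accounted for 4: at 10% RPS it had 60.8 CPM of Kcnma1 (next 44.6), 34.4 CPM of Kcnmb1 (next 25.5), 2.18 CPM of Kcnk2 (next 1.16) and 14.9 CPM of Kcna2 (next 9.34). It was also the shallowest library, with 18.43 megareads, and had the highest enteric neuron score. Mouse RS10_721 was low in Kcnmb1 at 5% RPS (17.8 CPM, next 26.5). In controls RS10_703 was high in Kcnj2 (9.68 CPM, next 6.69) and Kcnh3 (0.506 CPM, next 0.241), RS10_708 was high in Kcns3 (6.39 CPM, next 5.16) and RS10_707 was low in Kcnn4 (46.0 CPM, next 54.8). At 5% RPS RS10_724 was high in Kcnd3 (21.2 CPM, next 16.0). At 10% RPS RS10_731 was low in Kcne2 (0.0388 CPM, next 0.256).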

How the results depend on the processing

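The count of called members was 0 at 5% and 2% RPS in every setting run and with each mouse left out, and so was the count for any diet difference in the edgeR settings. At 10% RPS the count of called members was 0 in every setting except without the control RS10_703, where Kcnu1 was called, so leaving out 1 mouse gave 0 to 1. The count with a trend was 0, but 2 with DESeq2 (Kcnh6 and Kcnu1), 1 with the smooth muscle score as a covariate (Kcnh6), and 0 to 2 with 1 mouse left out. It was 2 without RS10_703 or RS10_704 (Kcnh6, Kcnu1) or RS10_727 (Kcna2, Kcnh6) and 1 without RS10_748 (Kcnh6) or RS10_724 (Kcnu1). The causes were not tested. Partner genes with a trend were 2, with 1 (Scnn1b) under no filter beyond 1 count, 0 by the treatment label, 0 without the 3 mice whose labels disagree, 0 with the clock score as a covariate, and 0 to 3 with 1 mouse left out. The 6 correlations with smooth muscle became 7 without RS10_721.

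Of 38 named genes, 19 kept the sign of the log2 fold change at 10% RPS everywhere. The others changed sign in at least 1 setting. By the treatment label the values were Kcnn4 0.10, Kcnq1 0.01, Kcne3 0.038, Kcnj15 -0.12, Kcnn2 0.016, Kcnj8 -0.003, Kcnd3 -0.039, Kcnk3 -0.073 and Kcnip4 0.061. Without the mice of disagreeing labels they were Kcnn4 0.03 and Kcnd3 -0.023. With limma-voom they were Kcnd3 -0.039, Kcnk2 0.00 and Kcnab3 -0.022, and with no filter Kcnd3 -0.008. With the muscle covariate Kcnq5 was 0.001, and with the clock covariate Kcnmb2 was -0.032, Kcnh2 0.007, Kcnd3 -0.072 and Kcnf1 0.028. Leaving out 1 mouse gave ranges of -0.382 to 0.056 for Kcna1, -0.181 to 0.145 for Kcnab3, -0.154 to 0.085 for Kcnd3, -0.129 to 0.041 for Kcne3, -0.110 to 0.032 for Kcnh2, -0.178 to 0.084 for Kcnip4, -0.194 to 0.010 for Kcnj10, -0.009 to 0.415 for Kcnj15, -0.049 to 0.094 for Kcnj8, -0.199 to 0.169 for Kcnk2 and -0.023 to 0.094 for Kcnk3. They were -0.048 to 0.395 for Kcnmb2, -0.243 to 0.033 for Kcnn2, -0.131 to 0.049 for Kcnn3, -0.086 to 0.020 for Kcnn4, -0.084 to 0.020 for Kcnq1, -0.111 to 0.178 for Kcnq3 and -0.128 to 0.128 for Kcnq5.

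No paired analysis was possible because each mouse number belongs to 1 animal. With 5 mice a diet, 15 members had an interval at 10% RPS that reached beyond a 2-fold change.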
